A study of Mus musculus with 39 samples.

Results

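Collagen genes were taken as all gene names of the form Col, a number, a, a number (Col1a1, Col6a2 and so on) on 39 one-colour Agilent arrays of mouse subcutaneous adipose tissue. The arrays held 40 such names among 29411 gene names, and the brightest probe stood for each gene. Of these, 3 were left out of the statistics because their probe was well above background on few arrays: Col10a1 on 2 of 39, Col20a1 on 5 and Col9a1 on 5, against a minimum of 6. The 37 genes kept comprised 11 fibrillar chains, 6 basement membrane chains and 20 other chains, with the 3 type VI chains among the last.

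All mice were C57BL/6J, weaned at 3 to 4 weeks of age and then put on 1 of 5 diets. LFC was the low-fat control diet with 10% of calories from fat (10 arrays). HFC was a diet rich in fat, with 60% of calories, and in sucrose (11 arrays). HF5, HF20 and HF75 were the HFC diet with 5, 20 or 75 µg of KAL-1, a botanical formulation made for the study (6 arrays each). LFC and HFC were sampled at 4 early time points, named Day 6, Day 10, Day 14 and Week 0, and then each 3 weeks up to Week 18. HFC was also sampled at Day 1, and the KAL-1 diets from Week 3 on. There was 1 array per diet and time point, the labels do not say whether an array held 1 mouse or a pool of the 5 mice killed, and sex was not given. Weeks were counted from Day 14 by the study's methods, so Day 14 and Week 0 repeat 1 time of sampling in LFC and in HFC. They are kept apart here and enter the tests as separate time points. The limma fits of diet differences measure them against the spread left between arrays after the time point, moderated over genes. From Week 3 on this spread is pooled over the 5 diets, so it is not the spread of a single comparison. The fits over time use the spread of time point means, and the other tests are named where they stand. The other time points have no replicate.

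Collagens are secreted proteins whose chains wind around each other into a helix, with a glycine in each Gly-X-Y triplet. Fibrillar collagens (types I, II, III, V, XI, XXIV and XXVII) build the fibres that give tissue its strength. Type IV collagen forms the sheet-like basement membrane that surrounds each adipocyte and blood vessel, and type VI forms beaded filaments close to the cell. In adipose tissue, type VI collagen is the chain family best known for its part in how far fat cells can expand, and fibroblasts and adipocyte progenitors are the main makers of fibrillar chains.

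Several collagen genes lie side by side in the mouse genome with no other coding gene between them in RefSeq (GRCm38.p6): Col4a1 and Col4a2 on chromosome 8, Col6a1 and Col6a2 on chromosome 10, Col3a1 and Col5a2, Col4a3 and Col4a4, and Col9a1 and Col19a1 on chromosome 1, and Col4a5 and Col4a6 on chromosome X. The Col4a1 and Col4a2 starts are shown because these genes are read in opposite directions from overlapping starts at chr8:11312801-11312830 (plus strand shown), and capitals mark the 22 bases from one start to the other. The bases before the starts of Col6a1 (chr10:76726045-76726294, minus strand) and Col6a2 (chr10:76623631-76623880, minus strand, the farther upstream of its 2 listed starts) are shown because both genes had an unadjusted p under 0.05 for HFC minus LFC and for HF75 minus HFC. Capitals in Col6a2 mark a GC box.
Col4a1 and Col4a2 starts: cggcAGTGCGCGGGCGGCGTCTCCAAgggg
Col6a1: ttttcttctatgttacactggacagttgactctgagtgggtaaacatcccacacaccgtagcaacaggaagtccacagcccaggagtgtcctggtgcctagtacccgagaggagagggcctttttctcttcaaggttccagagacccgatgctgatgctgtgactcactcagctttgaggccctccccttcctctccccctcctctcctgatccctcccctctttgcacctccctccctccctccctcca
Col6a2: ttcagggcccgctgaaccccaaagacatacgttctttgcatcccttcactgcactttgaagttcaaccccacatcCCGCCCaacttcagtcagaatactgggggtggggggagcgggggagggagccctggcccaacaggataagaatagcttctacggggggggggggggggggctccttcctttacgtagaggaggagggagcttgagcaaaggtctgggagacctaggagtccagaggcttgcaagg

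Both Col6 windows were searched on either strand for 3 motifs, none of which overlaps another. The TATA box, TATAAA, stands in 12.4% of the 32851 RefSeq promoters in the table. The motif CCAAT stands in 33.8% of them, and the GC box, with the letters GGGCGG, in 32.7%. The Col6a1 window held none of the 3, and the Col6a2 window held 1 GC box, 175 bases before the start. Promoters were found for 32 of the 40 genes.

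The repeat of the collagen helix can be read in some of the array's own 60-base probes. The second probes of Col5a3, Col5a1 and Col11a2 are shown because each runs through the helix, with the GGN codons of glycine in capitals. They cover 7 of 7, 6 of 6 and 6 of 6 triplets.
Col5a3: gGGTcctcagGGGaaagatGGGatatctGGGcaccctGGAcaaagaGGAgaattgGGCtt
Col5a1: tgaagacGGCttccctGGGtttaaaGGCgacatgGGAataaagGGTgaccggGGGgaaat
Col11a2: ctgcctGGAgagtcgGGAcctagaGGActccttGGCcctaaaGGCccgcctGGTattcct

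Levels are given as the log2 of a probe's processed intensity minus the log2 of the 75th percentile of its array, so 0 is the 75th percentile and a difference of 1 is a doubling. Probes differ in how strongly they bind, so levels were compared between arrays and never between genes. The 75th percentile itself lay between 108 and 1285 intensity units, lowest on the LFC array of Week 18, and between 49.3% (HF75, Week 3) and 87.8% (HF20, Week 15) of spots were well above background. No array pair of 741 was identical. All 6 adipocyte markers (Adipoq, Plin1, Cidec, Lep, Lpl and Fabp4) were well above background on all 39 arrays and so were all 6 endothelial and all 6 mural cell markers. In bulk tissue, fewer cells of a type and less RNA per cell cannot be told apart. Skeletal muscle markers varied most: the mean level of their 6 genes ran from -4.53 (HFC, Week 9) to 7.61 (HF75, Week 3).

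**Figure D1:**
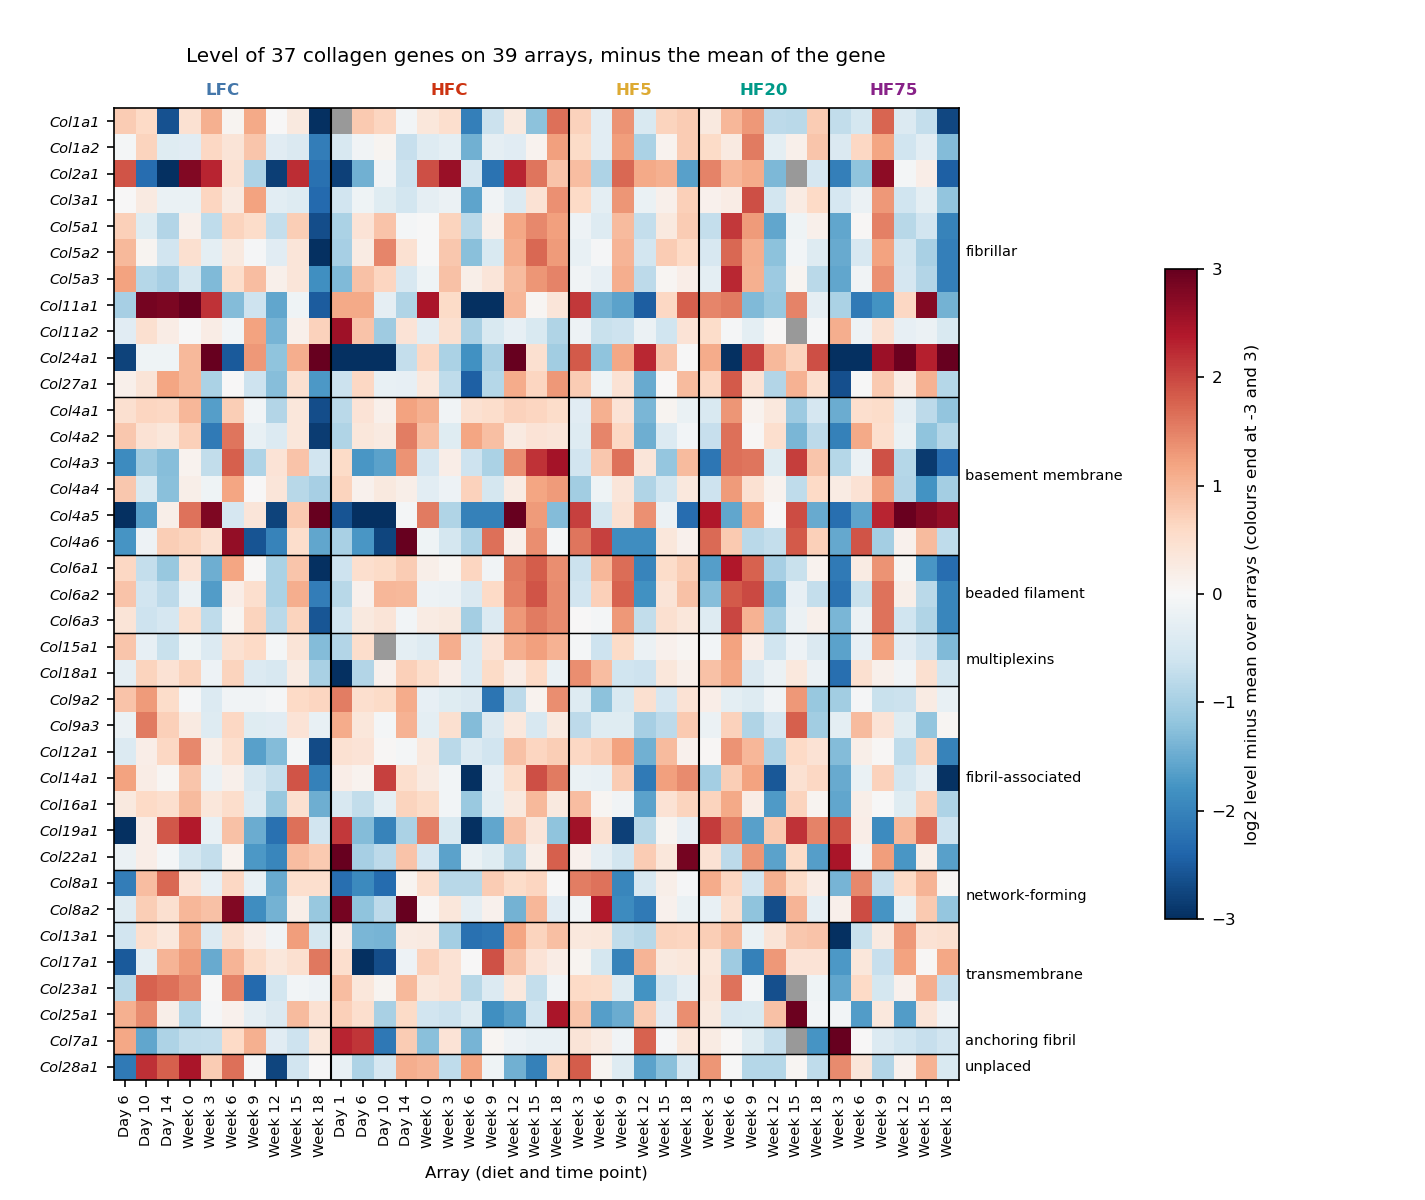
Level of 37 collagen genes (rows, grouped by chain family) on 39 arrays (columns, by diet and time point), as the log2 level minus the mean of the gene over all arrays; grey cells are spots left out by the scanner's outlier flag and colours end at -3 and 3. The LFC array of Week 18 is low across most fibrillar and type VI chains, and HFC arrays from Week 12 to Week 18 are high for type V and type VI chains.

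Over Week 3 to Week 18, type I and type III collagen chains differed between the low-fat and high-fat diets by less than their standard errors, but this rested on Week 18. From Week 3 to Week 18, Col1a1, a chain of type I collagen, ran from 2.43 (Week 18) over a median of 5.72 to 6.66 (Week 9) on LFC, and from 3.47 (Week 6) over 5.36 to 7.18 (Week 18) on HFC. The LFC and HFC ranges overlapped, and the difference was -0.16 (SE 0.66) on the log2 scale (limma, unadjusted p = 0.815, adjusted p = 0.977). Its partner chain Col1a2 differed by 0.00 (SE 0.45) and Col3a1, which codes for type III collagen, by 0.07 (SE 0.46). Without Week 18 the differences were -1.14 for Col1a1 (unadjusted p = 0.025), -0.67 for Col1a2 (p = 0.0584) and -0.65 for Col3a1 (p = 0.0594). Without the LFC array of Week 18 alone they were -0.79, -0.44 and -0.42. Over all 10 shared time points, Col1a2 and Col3a1 were each lower on HFC at 8 of 10, with mean differences of -0.10 and -0.08. These probes reached the top of the scanner's range: Col1a2 was saturated on 24 of 39 arrays, Col3a1 on 17 and Col1a1 on 8, so their highest levels are understated. Col1a2 was saturated on both diets at Day 6, Day 10, Week 0, Week 3, Week 12 and Week 15, and Col3a1 at Day 6, Week 0 and Week 15. Where both spots are saturated, the sign cannot tell which diet was higher. The 8 of 10 can thus not be read as lower expression. The dimmer, unsaturated second probe of Col1a1 gave a mean HFC minus LFC difference of 0.66 ± 1.95 (SD, n = 6 time points) and that of Col3a1 gave 1.03 ± 2.78. The sign for Col1a1 thus differed between its probes. Over the 10 shared time points the second probe of Col3a1 gave 0.54 ± 2.22 (SD, n = 10), against -0.08 by the first.

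Type V chains, minor partners that set the width of the fibres, stood higher on HFC on average. Col5a3 ran from 2.19 (Week 18) over 4.29 to 4.96 (Week 9) on LFC and from 4.20 (Week 6) over 4.95 to 5.52 (Week 18) on HFC. It was higher on HFC at 4 of 6 time points, by 1.06 (SE 0.49, unadjusted p = 0.0402, adjusted p = 0.849). Its dimmer second probe, saturated on no array, gave 0.53 ± 0.82 (SD, n = 6 time points), and the unadjusted p was 0.05 or above in 10 of 21 alternatives, that probe among them. Col5a3 did not meet the naming rule here and was named after its values were seen. Col5a1 differed by 1.00 (SE 0.58, unadjusted p = 0.098) and Col5a2 by 1.05 (SE 0.60, unadjusted p = 0.0924). Without Week 18 the differences fell to 0.42 for Col5a1, 0.38 for Col5a2 and 0.61 for Col5a3. The ranges of the diets overlapped for all 3 genes.

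The basement membrane chains Col4a1 and Col4a2, which assemble with each other, were higher on HFC at most weeks. Col4a1 on LFC was 2.26 at Week 3, 4.66 at Week 6, 3.83 at Week 9, 3.05 at Week 12, 4.27 at Week 15 and 1.26 at Week 18. On HFC it was 3.82, 4.38, 4.44, 4.61, 4.56 and 4.47 at the same weeks. HFC was thus nearly level while LFC was low at Week 3, Week 12 and Week 18, and all HFC values lay within the LFC range. The difference was 1.16 (SE 0.39, higher at 5 of 6 time points, unadjusted p = 0.00643, adjusted p = 0.849). Col4a2 differed by 1.07 (SE 0.42, higher at 5 of 6, unadjusted p = 0.0192, adjusted p = 0.849). The second probes gave 1.14 ± 1.16 for Col4a1 and 1.05 ± 1.67 for Col4a2 (SD, n = 6 time points), with correlations of 0.94 and 0.97 with the first.

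Type VI collagen had the largest median difference among the chain families. Col6a1 on LFC was 1.09 at Week 3, 3.72 at Week 6, 2.59 at Week 9, 1.60 at Week 12, 3.38 at Week 15 and -0.88 at Week 18. On HFC it was 2.60, 3.18, 2.43, 4.11, 4.36 and 3.95. The diets were close at Week 6 and Week 9 and farthest apart at Week 18, with 4.83 between them. The mean difference was 1.52 (SE 0.67, higher at 4 of 6 time points, unadjusted p = 0.0336, adjusted p = 0.849). Col6a2 differed by 1.29 (SE 0.59, higher at 5 of 6, unadjusted p = 0.039) and Col6a3 by 0.98 (SE 0.58, unadjusted p = 0.103). Without Week 18 they differed by 0.86 (Col6a1), 0.84 (Col6a2) and 0.38 (Col6a3).

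Counted over Week 3 to Week 18, 5 of 37 collagen genes were higher on HFC at an unadjusted p under 0.05 (Col4a1, Col4a2, Col6a1, Col6a2 and Col5a3) and 0 were lower, and 0 passed at an adjusted p under 0.05 in limma. Over all 21012 genes tested, 2.27% were higher and 2.79% lower at the same unadjusted threshold, and 0% passed the adjusted one. The median difference was 0.68 over basement membrane chains, 1.29 over type VI chains, 0.07 over fibrillar chains and 0.17 over the 20 other chains (0.06 over the 17 of them that are not type VI), against -0.05 over all genes. The count rested on single weeks: leaving out Week 18 gave 1 gene, Col1a1, which was lower, with Col4a1 at 0.75 and Col4a2 at 0.64, and leaving out Week 3 gave 2. It grew to 8 when Week 9 was dropped and to 11 when Week 6 was dropped. Dropping Week 12 gave 2 higher and 3 lower. Leaving out the dim LFC array of Week 18 alone left 1 gene, Col4a1, at 0.83 (unadjusted p = 0.0312), with Col6a1 at 0.99 (unadjusted p = 0.139). Without the time point as a block the count was 1, with the scan day as the block 2, and by the methods' t-test 0.

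**Figure D2:**
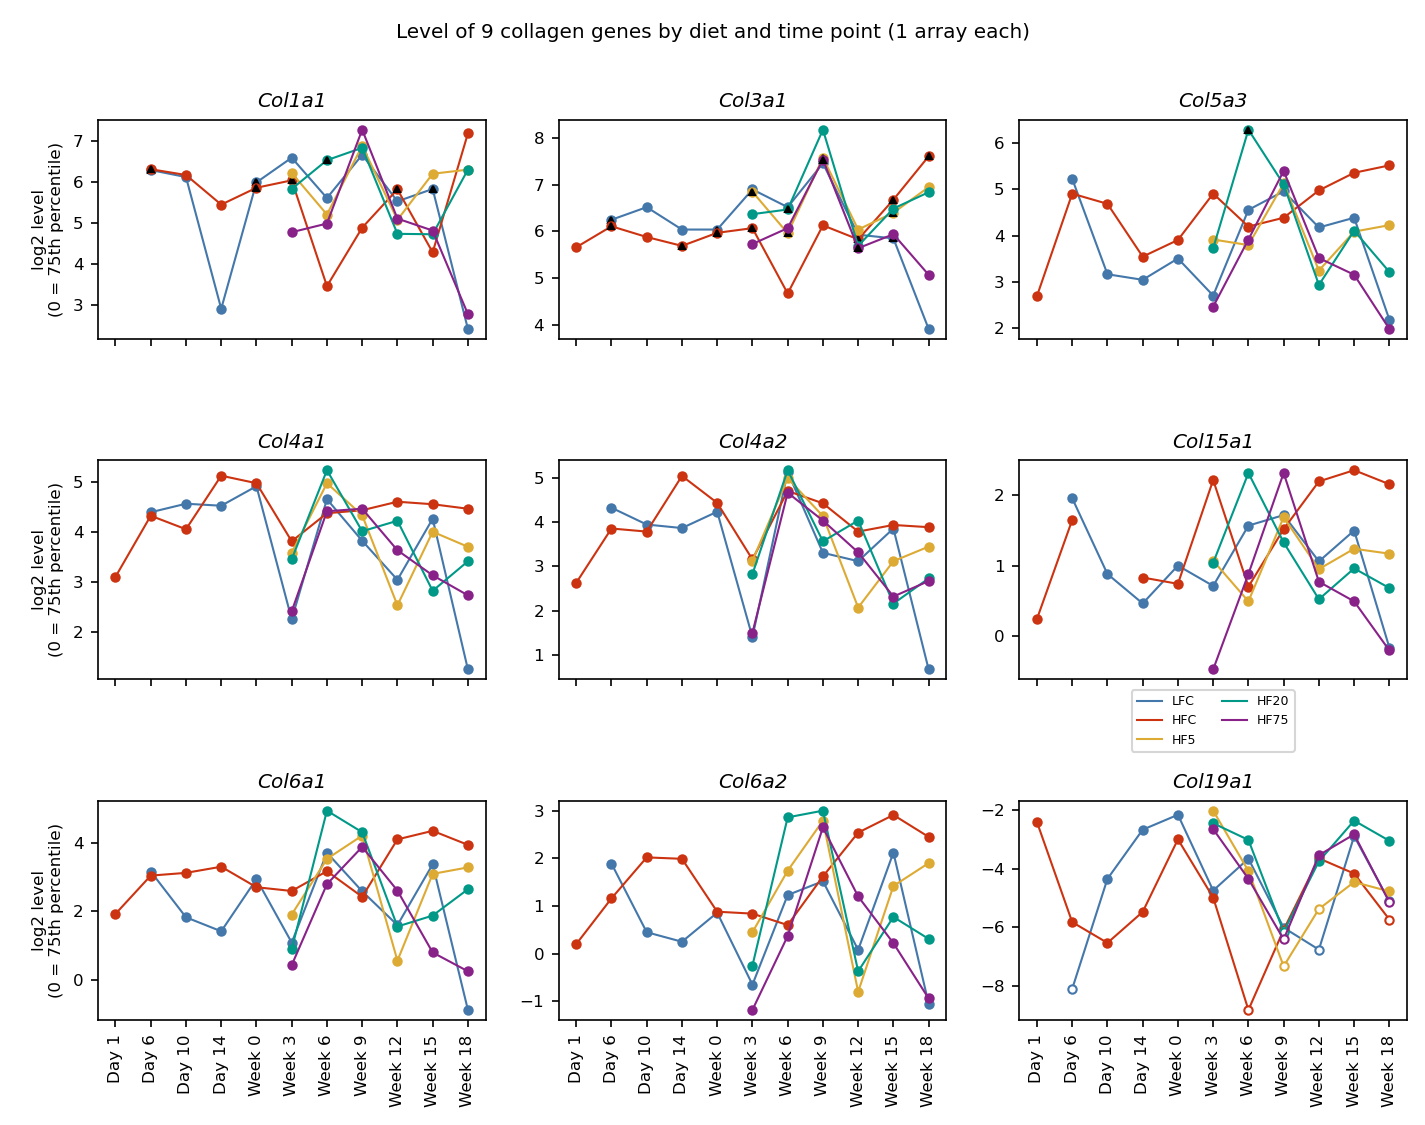
Level of 9 collagen genes (log2, 0 is the 75th percentile of the array) at each time point, 1 array per diet and point; open circles are spots not well above background and black triangles saturated spots. HFC (red) runs above LFC (blue) for Col6a1 at Week 3, Week 12, Week 15 and Week 18 and lies below it at Week 6 and Week 9.

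The sign of the diet difference turned over time for most of the family. The median difference of the 37 genes, HFC minus LFC, was 0.10 at Week 3, -1.45 at Week 6, -0.20 at Week 9, 1.27 at Week 12, 0.30 at Week 15 and 2.30 at Week 18. At Week 6, 36 of 37 genes were lower on HFC, and at Week 12, 32 of 37 were higher. Fibrillar chains swung farthest, from -1.54 at Week 6 to 3.31 at Week 18. At Week 12 the HFC and LFC arrays were scanned on different days, and at the other late weeks on the same day, so at Week 12 scan day and diet cannot be told apart. The mean level of 7 fibroblast and progenitor markers moved along, from -0.40 on HFC at Week 6 to 3.45 at Week 18, while on LFC it was lowest at Week 18 with 0.26. None of these 7 markers differed between the diets at an unadjusted p under 0.05, with a median difference of 0.21. Skeletal muscle markers averaged -2.11 ± 2.26 on HFC against -0.30 ± 2.51 on LFC from Week 3 on (SD, n = 6), lymphocyte markers -4.14 ± 1.57 against -2.50 ± 2.08 and macrophage markers 1.30 ± 0.71 against 0.65 ± 0.53, with 0 genes of these lists under the unadjusted threshold. Of 6 adipocyte markers 2 were higher on HFC, Lep (1.81, unadjusted p = 0.0488) and Lpl (0.93, unadjusted p = 0.012). The LFC array of Week 18 also had the highest liver marker level on LFC, -0.98, where the other LFC arrays lay between -7.04 and -4.31. The part of these markers in the collagen values was not tested.

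Over all 10 shared time points, Col6a1, Col6a2 and Col5a3 were under the unadjusted threshold. Col6a1 ran from -0.88 over 2.21 to 3.72 on LFC and from 2.43 over 3.16 to 4.36 on HFC, and was higher on HFC at 6 of 10 time points, by 1.20 (SE 0.47, unadjusted p = 0.0254, adjusted p = 0.803). Col6a2 was higher at 8 of 10, by 1.03 (SE 0.40, unadjusted p = 0.0232), and Col5a3 at 7 of 10, by 0.84 (SE 0.36, unadjusted p = 0.0371; 0.37 ± 0.65 by its second probe, SD, n = 10 time points). Without Week 18 the 3 differences were 0.79, 0.76 and 0.57. These 3 of 36 genes were higher at an unadjusted p under 0.05 and 0 were lower, against 1.96% higher and 3.9% lower of all 19872 genes tested, with 0% past the adjusted threshold. The count was 2 when Day 14, Week 3 or Week 15 was dropped, and 6 when Week 6 was. Without Week 12 it was 3 genes, all of them lower, and without the LFC array of Week 18 it was 1 higher and 2 lower. Col4a1 differed by 0.70 and Col4a2 by 0.72 (both unadjusted p = 0.0568). Of 5 macrophage markers, 3 (Cd68, Emr1 and Itgax) were higher on HFC at an unadjusted p under 0.05, with a list median of 0.69, and their part was not tested.

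At the early time points, the median of the 37 genes, HFC minus LFC, was -0.14 at Day 6, -0.62 at Day 10, 0.38 at Day 14 and -0.36 at Week 0, and that of the type VI chains was -0.12, 1.31, 1.74 and -0.24. At Day 6 the arrays of the diets were scanned on different days, so scan day and diet cannot be told apart there, and without Day 6 the count over the remaining shared time points was 4. Type VI chains were higher on HFC at Day 10 and Day 14 for all 3 genes. At Week 0, which repeats the sampling of Day 14, 1 of them was higher and 2 were lower. Of the 37 genes, 24 were higher and 13 lower at Day 14, but 7 higher and 30 lower at Week 0. The repeat thus did not show the difference of Day 14. Macrophage markers averaged 1.69 on HFC against -0.30 on LFC at Day 10, and 1.83 against -0.36 at Day 14. Endothelial markers averaged 1.76 against 3.68 at Day 10. The HFC array of Day 14 stood apart in its 3 liver markers, with a mean level of 2.21 against a median of -6.06 over the 10 HFC arrays. The part of these markers was not tested. The change of the diet difference from the first 4 to the last 6 time points was positive for 30 of 36 genes, with a median of 0.56 against -0.01 over all genes. No collagen gene passed an unadjusted p of 0.05 in that test, where 0.8% of all genes did upward and 1.09% downward, and 0% passed the adjusted threshold. The smallest p belonged to Col17a1, a transmembrane chain of epithelial attachment, with 1.38 (SE 0.69, p = 0.0719), Col4a1 with 1.14 (SE 0.62, p = 0.0961) and Col8a1, a network-forming chain, with 1.27 (SE 0.82, p = 0.152). Without Week 6 the count was 4, and without Week 18 it was 2.

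With 5 µg of KAL-1, the mean differences from HFC ran from -0.82 (Col5a3) to 1.02 (Col24a1, higher at 5 of 6 time points). For HF5 minus HFC, 0 of 37 collagen genes passed an unadjusted p of 0.05 in limma in either direction, against 0.714% higher and 0.652% lower of all genes and 0% past the adjusted threshold. Leaving out Week 9 gave 3 lower genes and leaving out Week 18 gave 2 higher ones. The smallest p belonged to Col15a1, a multiplexin of the outer basement membrane, which was lower at 5 of 6 time points, by -0.76 (SE 0.39, p = 0.0648). It was followed by Col4a4 (-0.78, SE 0.43, p = 0.0835) and Col5a3 (-0.82, SE 0.49, p = 0.104). The type VI chains differed by -0.67 (Col6a1), -0.58 (Col6a2) and -0.30 (Col6a3).

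With 20 µg of KAL-1, 1 of 37 collagen genes was higher and 0 lower at an unadjusted p under 0.05, against 3.01% and 1.26% of all genes and 0% past the adjusted threshold. This was Col19a1, a rare fibril-associated chain. On HFC it was -4.99 at Week 3, -8.83 at Week 6, -6.09 at Week 9, -3.65 at Week 12, -4.17 at Week 15 and -5.74 at Week 18. On HF20 it was -2.45, -3.02, -6.16, -3.75, -2.36 and -3.05. The spot exceeded background clearly on 3 of 6 HFC arrays and 5 of 6 HF20 arrays, so the low HFC values are near the limit of detection. The difference was 2.11 (SE 0.68, higher at 4 of 6 time points, unadjusted p = 0.00509, adjusted p = 0.997). The second probe of this gene correlated with the first at 0.10, and gave a mean difference of 0.55 ± 2.97 where the first gave 2.11 ± 2.19 (SD, n = 6 time points). Muscle markers stood beside this result: 3 of 6 (Myh4, Tnni2 and Tnnt3) were higher on HF20 at an unadjusted p under 0.05, with a list median of 2.32, and their part was not tested. The mean muscle marker level ran from -4.53 to 0.96 on HFC and from -2.40 to 2.99 on HF20. Leaving out Week 6 gave 4 collagen genes, Week 12 gave 3 and Week 18 gave 5. With normexp background correction the count was 23 of 37. At an adjusted p under 0.05 it was then 18, with 8023 of all 21012 genes. The HF20 array of Week 15, where Col19a1 was highest on HF20, had 4936 spots with an outlier flag, against a median of 42 over all arrays. On it 33 of the 37 collagen genes were measured, and no alternative left it out alone.

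With 75 µg of KAL-1, more collagen genes were lower than with the other doses, although no test set the doses against each other. At an unadjusted p under 0.05, 9 of 37 were lower and 1 was higher on HF75 than on HFC, against 3.11% lower and 1.93% higher of all 21012 genes, and 0% passed the adjusted threshold. All 3 type V chains, 3 type IV chains, Col6a1, Col6a2 and Col15a1 made up the 9, and Col19a1 was the gene that was higher, by 1.42 (unadjusted p = 0.0485, and 0.05 or above in 13 of 20 alternatives). The median difference was -1.44 over type VI chains, -0.82 over basement membrane chains, -0.17 over fibrillar chains and -0.03 over the other chains (0.06 without type VI), against 0.00 over all genes. The HFC arrays are the same as in the comparison with LFC, so a high or low HFC array enters both with opposite signs.

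Col15a1, which links the basement membrane to nearby fibres, had the smallest p. On HFC it was 2.22 at Week 3, 0.70 at Week 6, 1.52 at Week 9, 2.20 at Week 12, 2.36 at Week 15 and 2.16 at Week 18. On HF75 it was -0.48, 0.88, 2.32, 0.77, 0.49 and -0.21. HF75 was lower at 4 of 6 time points and higher at Week 6 and Week 9. The difference was -1.23 (SE 0.39, unadjusted p = 0.00442, adjusted p = 0.865), and it kept an unadjusted p under 0.05 in all 21 alternatives. The second probe gave -1.27 ± 1.33 (SD, n = 6).

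Col5a3 on HF75 ran from 1.99 (Week 18) over 3.34 to 5.40 (Week 9), and was lower than on HFC at 5 of 6 time points, by -1.49 (SE 0.49, unadjusted p = 0.00567, adjusted p = 0.865), again in all 21 alternatives, with -1.11 ± 1.44 by its second probe (SD, n = 6). Col6a1 on HF75 was 0.43, 2.8, 3.89, 2.61, 0.80 and 0.25 from Week 3 to Week 18, below HFC at every week but Week 9. It differed by -1.64 (SE 0.67, unadjusted p = 0.0228) and Col6a2 by -1.44 (unadjusted p = 0.0221). Col4a1 differed by -0.91 (unadjusted p = 0.0276) and Col4a2 by -0.90 (unadjusted p = 0.0444), the latter lower at 6 of 6 time points. Col4a3, a chain of specialised basement membranes, differed by -1.64 (unadjusted p = 0.0483), but was well above background on only 2 of 6 HF75 arrays. Its sign turned with normexp background correction. Col5a2 (-1.26, unadjusted p = 0.0451) and Col5a1 (-1.22, unadjusted p = 0.0472) lay just under the threshold. The type I and III chains Col1a1 (-0.32), Col1a2 (0.04) and Col3a1 (-0.17) did not pass, with SE of 0.45 to 0.66. The probes used for Col1a1 and Col3a1 were saturated on 8 and 17 of 39 arrays. Their next brightest probes, saturated on none, differed by -1.05 ± 2.61 and -1.3 ± 2.86 (SD, n = 6 time points).

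**Figure D3:**
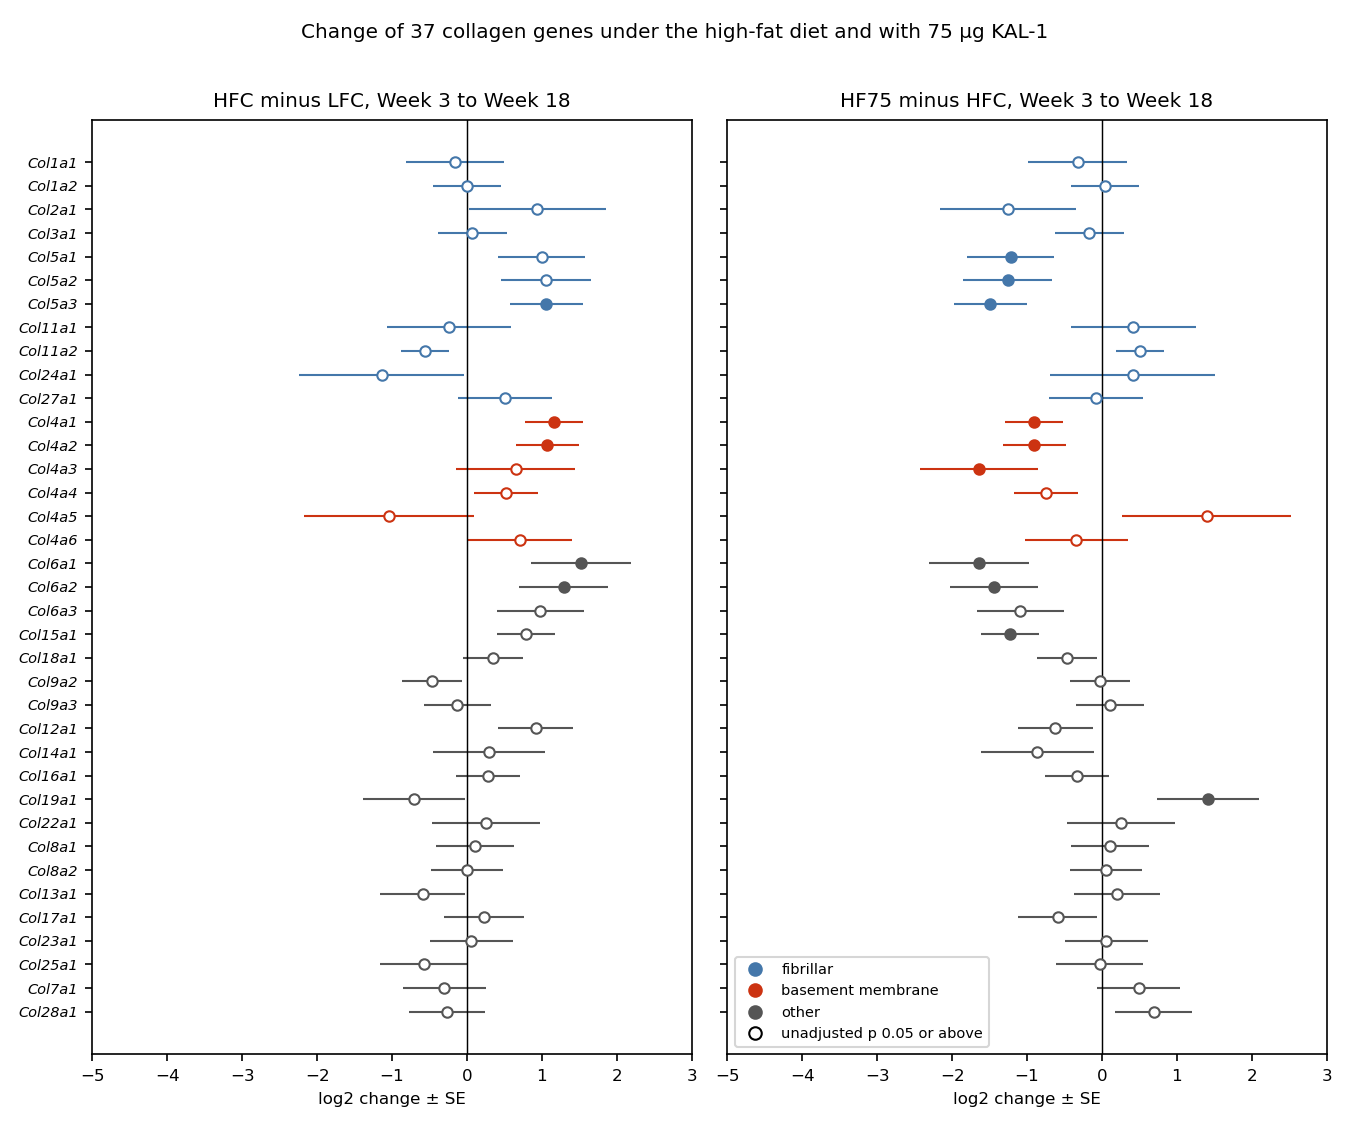
Log2 change and its standard error for 37 collagen genes, HFC minus LFC (left) and HF75 minus HFC (right) over Week 3 to Week 18; filled points have an unadjusted p under 0.05, and no point passed the adjusted threshold. Type IV, V and VI chains lie right of 0 on the left and left of 0 on the right, with Col4a5 as an exception, and both panels share the HFC arrays.

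The count of 10 for HF75 rested on single weeks: dropping any of Week 3, Week 15 or Week 18 gave 2, and dropping Week 9 gave 12. Leaving out the HF75 array of Week 3 alone, where the fewest spots were detected and muscle markers were highest, gave a count of 7, with 5 of the 10 genes among them and Col6a1 at -1.59 (unadjusted p = 0.0358). Col4a1, Col4a2, Col5a1, Col5a2 and Col19a1 were not under the threshold without that array. The macrophage markers Cd68 (-1.31) and Itgax (-2.10) were also lower on HF75, 2 of 5 at an unadjusted p under 0.05. Muscle markers were higher, 3 of 6, with a list median of 3.10. The 7 fibroblast and progenitor markers had a median of -0.69, with 0 past the unadjusted threshold. Their part in the collagen values was not tested.

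Week by week, the differences from HFC changed sign. The type VI median for HF75 minus HFC was -2.02 at Week 3, -0.24 at Week 6, 1.46 at Week 9, -1.50 at Week 12, -2.69 at Week 15 and -3.39 at Week 18. For HF20 it was -1.09, 2.26, 1.45, -2.55, -2.14 and -1.30, and for HF5 it was -0.39, 0.97, 1.72, -3.34, -1.26 and -0.66. All 3 doses were thus below HFC at Week 3 and from Week 12 on and above it at Week 9, but all were measured against the same HFC array at each week. At Week 12 the HFC and HF75 arrays shared a slide and a scan day that HF5 and HF20 did not. At Week 6 HF20 and HF75 were scanned on another day than HFC.

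**Figure D4:**
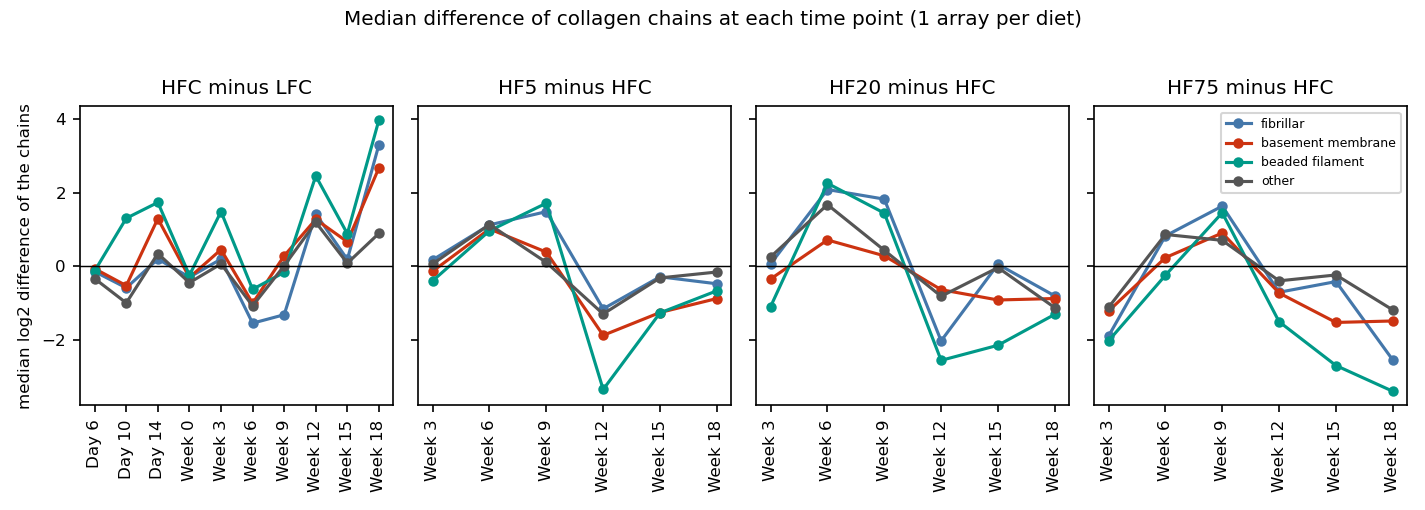
Median log2 difference of the fibrillar, basement membrane, type VI and other collagen chains (type VI included in the last) at each time point, for each diet comparison, from 1 array per diet. HFC minus LFC is lowest at Week 6 for each of these medians, and the type VI and basement membrane medians of each dose minus HFC lie below 0 from Week 12 on.

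With the 3 doses pooled, 1 of 37 collagen genes was higher than on HFC and 2 were lower at an unadjusted p under 0.05, against 2.57% and 1.95% of all genes and 0% past the adjusted threshold. Col15a1 differed by -0.90 (unadjusted p = 0.00947), Col5a3 by -0.99 (unadjusted p = 0.0205) and Col19a1 by 1.48 (unadjusted p = 0.0142), all with an adjusted p of 1. The second probes gave -0.62 ± 1.11 for Col5a3 and 0.38 ± 2.52 for Col19a1 (SD, n = 6 time points). With its unsaturated probe Col5a3 had an unadjusted p of 0.162, and with the mean over probes Col19a1 was at 0.71 (unadjusted p = 0.0658). The count was 1 when Week 3 was dropped, 8 when Week 6 was and 10 when Week 9 was. Col4a1 (-0.65, unadjusted p = 0.0518) and Col6a2 (-0.93, unadjusted p = 0.0645) lay just outside the threshold. Of the muscle markers 3 of 6 were higher with the doses pooled, with a list median of 2.66, and their mean level was 0.45 on HF5, 0.19 on HF20 and 1.04 on HF75 against -2.11 on HFC. Of the macrophage markers 2 of 5 were lower (Cd68 by -1.03 and Itgax by -1.31), with mean levels of 0.83, 0.44 and 0.18 against 1.30. Of the adipocyte markers 2 of 6 were lower, Lep by -1.56 and Lpl by -0.84. The part of these markers was not tested.

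Early and late arrays shared 0 scan days, so time and scan day cannot be told apart in what follows. From the first 4 to the last 6 time points, over LFC and HFC together, Col11a1, a chain that starts thin fibrils, went from a median of -1.13 (lowest -3.91, highest 0.26, 8 arrays) to -3.30 (lowest -7.21, highest -0.76, 12 arrays), and was lower by -2.07 (unadjusted p = 0.0185, adjusted p between 0.478 and 0.566 for the 5 genes under the threshold). With normexp background correction Col11a1 differed by -0.50 (unadjusted p = 0.259), and without Week 0 by -1.56 (unadjusted p = 0.0677). Col4a1 was between 4.06 and 5.13 early and between 1.26 and 4.66 late, a difference of -0.81 (unadjusted p = 0.0496, and 0.05 or above in 14 of 23 alternatives, with values from -1.38 to -0.55). The transmembrane chain Col23a1 (-0.97, p = 0.0306) and the fibrillar chain Col27a1 (-0.82, p = 0.0353) were lower too, and Col4a3 was higher (1.29, p = 0.0303), though above background on only 3 of 8 early arrays. Alternatives took Col23a1 to -0.34, Col27a1 to -0.38 and Col4a3 to 0.38. That made 1 of 36 higher and 4 lower, against 4.48% and 4.33% of all genes and 0% past the adjusted threshold. All 7 fibril-associated chains had a negative difference, with a median of -0.54, and none passed. The count was 2 without Day 10, 2 without Week 9, and 3 without Day 14, Week 3 or Week 12. Muscle markers were lower too, 2 of 6 with a list median of -2.74, and their part was not tested.

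Within Week 3 to Week 18, over all 5 diets, 2 of 37 collagen genes had a positive slope per week and 0 a negative one at an unadjusted p under 0.05, against 3.89% and 1.28% of all genes and 0% past the adjusted threshold. These were the transmembrane chains Col13a1 (0.09 log2 units per week, p = 0.0145) and Col17a1 (0.08, p = 0.0459), with an adjusted p of 0.863. Neither remained under the threshold with the time point as a random block over single arrays. The count was 5 without Week 3 and 1 without Week 9, and 0 without the HF75 array of Week 3.

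Chains that lie side by side differed in how closely they moved together. Col9a1 and Col19a1 were not compared, as Col9a1 was left out of the statistics. Levels were first centred within each week from Week 3 on, so that age does not enter, and the labels of arrays were permuted within weeks (100000 permutations, two-sided, 14 pairs examined). Col4a1 and Col4a2 had a Pearson r of 0.95 and a Spearman rho of 0.93 over 30 arrays, and 0.93 without the 2 arrays farthest from the median (p = 1e-05 for both by permutation, the smallest these permutations can give, adjusted p = 1.56e-05 and 2e-05). Col6a1 and Col6a2 had r = 0.95, rho = 0.95 and 0.95 without 2 arrays, with the same p. Col3a1 and Col5a2 (r = 0.78, rho = 0.71, 0.67 without 2 arrays) and Col4a3 and Col4a4 (r = 0.71, rho = 0.68, 0.62 without 2 arrays) were looser, with adjusted permutation p of 8.4e-05 and 0.000484 for the first and 0.000315 and 0.000294 for the second. Col4a5 and Col4a6, the pair on chromosome X, had r = 0.16 and rho = 0.20 (permutation p = 0.433 and 0.347). A second Col4a6 probe, detected on 39 arrays against 36, correlated at -0.26 with the probe used, so the value for this pair depends on the probe. Genes measured on one array share its RNA and its scaling, which also enters these values.

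Over all 39 arrays, the collagen genes whose pattern was most like that of Col6a1 were Col6a2 (r = 0.93), Col5a1 (0.89), Col6a3 (0.89), Col5a2 (0.85) and Col5a3 (0.84), followed by Col4a1 (0.80). Among the 55 pairs of fibrillar chains the median r within weeks was 0.58, among the 15 pairs of basement membrane chains 0.33, and among the 190 pairs of other chains, type VI included, 0.16. Col24a1 and Col4a5 stood apart from their families and moved with each other (r = 0.84), a pair picked after seeing the values. The mean level of the type VI chains went with that of the fibroblast and progenitor markers (r = 0.90, rho = 0.93 over 30 arrays within weeks, 0.88 without 2 arrays) and of the macrophage markers (r = 0.76, rho = 0.77, 0.73 without 2 arrays), and against the adipocyte markers (r = -0.53, rho = -0.59, -0.56 without 2 arrays). With muscle markers it had r = -0.22 and with the percentage of spots detected r = 0.20. With the log2 of the 75th percentile, which scales each array, it had r = 0.45 and rho = 0.41, and 0.36 without 2 arrays. The permutation p was 0.0342 and 0.0373 there (adjusted p = 0.0632 and 0.0677). These are descriptions over arrays that share a scale.

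The genes that make and handle collagen were counted from lists by role, 58 on the array and 54 tested in the comparisons from Week 3 on. For HFC minus LFC, 2.27% of all genes were higher and 2.79% lower at an unadjusted p under 0.05. Of the 54, 6 were higher and 0 lower, with 47 positive and a median of 0.51. Prelp (1.33, SE 0.38, p = 0.00187) and Aspn (1.08, SE 0.36, p = 0.00635), proteoglycans that bind fibrils, were among them. So were the basement membrane partners Nid2 (1.17, SE 0.34, p = 0.00212), Nid1 (0.71, p = 0.0415) and Lamb1-1 (0.83, p = 0.0168), which are nidogens and a laminin chain, and Crtap (0.81, p = 0.0257), a part of the proline-modifying complex. All had an adjusted p of 0.849.

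For HF75 minus HFC, 3.11% of all genes were lower and 1.93% higher at an unadjusted p under 0.05. Of the 54, 0 were higher and 10 lower, with 48 negative and a median of -0.55. Chain modification and folding gave 3 of 17 (Plod3 at -0.62, Serpinh1, the collagen chaperone, at -0.68, and Crtap at -0.79), and crosslinking gave 1 of 5 (Lox, lysyl oxidase, at -1.19). Fibril-binding proteins gave 2 of 9 (Prelp at -1.34 and Aspn at -0.90), and basement membrane partners 4 of 10 (Nid2 at -0.96, Pxdn, a peroxidase that crosslinks type IV collagen, at -0.94, Nid1 at -0.86 and Lamb1-1 at -0.85). Propeptide removal had 0 of 6 past the threshold, all 6 negative, and receptors and uptake 0 of 7. The adjusted p was 0.865 for each. For HF5 and HF20, 2 of 54 were lower each and 0 higher, against 0.652% and 1.26% of all genes lower and 0.714% and 3.01% higher. No count of these 54 genes was made without a single week or array, in this comparison or those above. The share of all genes past the threshold in each comparison is given with the collagen counts above.

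The remaining chains showed smaller or less certain values. Col18a1, the other multiplexin and source of endostatin, differed by 0.35 (SE 0.40) for HFC minus LFC and by -0.47 (SE 0.40) for HF75 minus HFC. The fibril-associated chains Col12a1 (0.92, SE 0.50, unadjusted p = 0.0767, and -0.62, SE 0.50) and Col14a1 (0.29 and -0.86, both SE 0.75) had the same pair of signs. Col8a1 differed by 0.11 in both comparisons (SE 0.52). The spread within a diet could be wide: Col14a1 ran from -1.74 (Week 6) to 3.53 (Week 15) on HFC alone from Week 3 on. Col24a1, a fibrillar chain, and Col4a5 ranged widely: over 39 arrays Col24a1 ran from -3.97 over 2.10 to 5.39 and Col4a5 from -5.59 over -1.25 to 2.73. Their HFC minus LFC differences from Week 3 on were -1.14 (SE 1.1) and -1.04 (SE 1.13), and both were named after their values were seen. Among 28 other probes of these genes that were detected on at least 6 arrays, 18 correlated above 0.5 with the probe used for their gene and 10 below, with a median of 0.61 and a lowest value of -0.26.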

How the data were processed

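RNA of subcutaneous adipose tissue was hybridised to one-colour Agilent arrays, 1 per diet and time point. The authors deposited scanner files of Agilent Feature Extraction (version 10.5.1.1 per the file headers, 9.1 per the labels) with processed intensity, background-subtracted and detrended within each array, and mean and background intensity. They also deposited a table of log2 ratios, whose centring is not stated and which was used only as an alternative. Here control spots and flagged outlier spots were dropped, spots of a probe were averaged, and the log2 of the 75th percentile of each array was subtracted. Genes were kept if well above background on at least 6 arrays (10 of 20 arrays for fits of LFC and HFC alone).

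Differences were tested with limma 3.58.1 in R 4.3.3 (lmFit, eBayes, two-sided) and the time point entered as a block. Benjamini-Hochberg adjustment ran over all genes tested. The fits from Week 3 on used all 5 diets. The fit was tested on simulated data. Depth has no meaning for arrays, whose number limits the precision. The collagen genes and the gene lists were chosen with earlier results of these data known. The genes named throughout were 15 chains of types I, III, IV, V, VI, VIII, XII, XIV, XV and XVIII, and in each comparison up to 3 collagen genes from either end of the log2 changes with an unadjusted p under 0.05 or, where no gene had one, the 3 genes of smallest p. Alternatives covered the background correction, normalization, filters, probes, blocks, the methods' t-test and leaving out time points. Choosing unsaturated probes and leaving out the LFC array of Week 18 or the HF75 array of Week 3 were alternatives chosen after seeing the data.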

Additional observations from a re-analysis of the deposited data

Results flagged for a closer look

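In 72 groups of 6 or 10 arrays, 6 collagen values lay farther from the rest of their diet than Dixon's 95% critical value allows, where chance gives about 3.6 (1 in 20). The LFC array of Week 18 was the lowest of 10 for 5 of these. Col1a2 was at 4.27 there (next lowest 5.91, gap over range 0.563 against a critical 0.466). Its spot was saturated on 7 of the 10 LFC arrays but not on this one, so its higher levels are understated. Col3a1, saturated on 3, was at 3.91 (next 5.85, 0.547), Col5a1 at 0.55 (next 2.32, 0.521), Col5a2 at -1.53 (next 0.98, 0.619) and Col6a3 at 1.78 (next 3.53, 0.545). This array had the lowest 75th percentile of intensity, 108, and its fibroblast and progenitor markers averaged 0.26 and its adipocyte markers 4.73. Its 3 liver markers (Alb, Apoa1 and Ttr) averaged -0.98, against -7.04 to -4.31 on the other LFC arrays, and its skin markers were the highest on LFC, at -3.57. On the HF75 array of Week 3, Col18a1 was at 1.44 (next 3.17, 0.629 against 0.625, n = 6), beside a mean muscle marker level of 7.61 and an endothelial one of 1.05. The part of these values in the low levels was not tested.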

How the results depend on the processing

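At an adjusted p under 0.05, the count of collagen genes was 0 in all 9 comparisons and in 190 alternative fits, and 18 of 37 in a single one, HF20 minus HFC with normexp background correction (offset 50), where 8023 of 21012 genes passed and the median of all genes moved to 0.35. The cause was not tested. One sign among called genes turned: Col4a3, HF75 minus HFC, was 0.25 (p = 0.601) under normexp. Counts at an unadjusted p moved by over 1.5 times with the same correction, to 13 for HFC minus LFC over 10 time points, 9 from Week 3 on, 23 for HF20, 18 for the doses together, 2 for late minus early and 0 for the change per week, against 3, 5, 1, 3, 5 and 2. For HF75 they were 5 without the block, 4 by the methods' t-test and 12 with the slide as a random block, against 10. For HFC minus LFC from Week 3 on they were 1 without the block, 0 by the methods' t-test and 9 with the slide as a random block, against 5. For the change per week the slide as a random block gave 6 and leaving out the HF75 array of Week 3 gave 0, against 2. Without the LFC array of Week 18, late minus early was 3. Col15a1 and Col5a3 (HF75 minus HFC) kept an unadjusted p under 0.05 in all 21 alternatives (0.000275 to 0.0434 and 0.00081 to 0.0454), and so did Col19a1 (HF20 minus HFC) in all 20 (0.000258 to 0.0496). The slide as a random block was not run for HFC minus LFC over 10 time points, its change from early to late, or late minus early time points, since it could not be estimated. From Week 3 on most arrays were alone on their slide. This setting thus rests on few pairs of arrays and can show little about a slide effect. The time point block pairs the arrays of the diets within a time point. No paired analysis was possible by replicate number because these numbers only name the arrays of a diet. Near background, as for Col4a3 and Col19a1, a difference is limited by the probes' signal.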
